A study of Homo sapiens with 6 samples.

Results

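The S100 proteins are a family of small calcium sensors, and 10 genes of the family that are known from myeloid or other blood cells were chosen by name. Of these, 9 were analysed in the count table of 33981 genes and S100Z was not analysed here. Each S100 protein carries a pair of EF-hands, the helix-loop-helix motif that binds calcium, and most work as dimers that change shape and grip a partner protein when calcium rises. S100A8 and S100A9 join as calprotectin, which fills the cytosol of neutrophils and monocytes, binds zinc and manganese, and acts as an alarm signal on TLR4 and RAGE once it is released. S100A12 is the third calgranulin of the same cells, whereas S100A4, S100A6, S100A10 and S100A11 are made in many tissues and act on myosin and annexins.

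The samples were THP-1 cells, a human monocytic cell line from an acute myeloid leukemia, transduced with a lentivirus that carried either scrambled shRNA (3 samples) or NFIC shRNA (3 samples), sorted for GFP and sequenced as bulk mRNA 4 days later. NFIC is a transcription factor of the nuclear factor I family. All samples come from 1 cell line. The study names a single hairpin for these libraries, and its methods call the control vector GFP only where the labels say scrambled shRNA. The labels do not say whether replicates came from separate transductions, so the p-values measure the spread between these samples, which may be technical. In such bulk samples, fewer cells of a type and less RNA per cell cannot be told apart.

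Total counts were between 20369543 and 24809720 per sample, at which 3 counts equal 0.121 to 0.147 CPM (counts scaled to a common library size). Such floors cover counting error only, since no molecular identifiers are described. NFIC itself had 911, 1019 and 904 counts with scrambled shRNA and 399, 518 and 493 counts in the NFIC knockdown (KD) samples, a log2 fold change of -0.99. All 8 monocytic markers (CD33, ITGAM, CSF1R, CD4, LYZ, SPI1, PTPRC and MPO) were detected, with a summed level of 1651 to 1765 CPM in scrambled and 1805 to 1969 CPM in KD samples, and 3 rose while 4 fell. Markers of other cells summed to far lower levels. Of those tested 6 fell (NKG7, CD79A, CD79B, ITGA2B, GP9 and COL1A1), 1 was not called and none rose. In the edgeR test described below, 29.6% of all genes tested were higher and 30.3% lower. The 4 T and NK cell markers of 8 that were analysed summed to 5.65 to 6.29 CPM in scrambled and 2.18 to 2.89 CPM in KD samples. The 3 B cell markers of 4 summed to 18.8 to 21.3 CPM and 14.4 to 15.8 CPM, and the 2 platelet markers of 4 to 7.72 to 8.13 CPM and 2.57 to 2.89 CPM. The 4 keratinocyte and epithelial markers summed to 0.647 to 1.14 CPM and 0.130 to 0.215 CPM, the 3 erythroid markers of 5 to at most 0.173 CPM in any sample, and the 4 fibroblast markers to 5.18 to 6.03 CPM and 1.70 to 2.24 CPM. CD3D, HBB, HBA1, KRT5 and KRT14, which define T cells, red cells and keratinocytes, had at most 3 counts in any sample. Others were well above that floor. CD79B, ITGA2B, NKG7 and COL1A1 averaged 15.5, 6.13, 5.43 and 5.22 CPM in scrambled samples, more than the member S100A12 (2.19 CPM). The part of these markers in the S100 results was not tested.

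Most of the 9 S100 transcripts analysed differed after NFIC KD, and not in one direction. These members were chosen with earlier results of these data known. In edgeR's quasi-likelihood test, with p adjusted by the Benjamini-Hochberg method over all 19182 genes tested, 8 of the 9 members had an adjusted p under 0.05, against 59.9% of all genes tested. The calgranulins S100A9, S100A12 and S100A8 rose together with S100P and S100A11, so that 5 members were higher (29.6% of all genes). S100A4, S100A6 and S100A10 fell, so that 3 members were lower (30.3% of all genes). For 8 of the 9 members the KD samples did not overlap the scrambled samples, which held for 65.2% of all genes (32.2% with KD higher and 33% with KD lower). The median log2 fold change of the 9 members was 0.16, beside -0.011 for all genes tested. All 9 members passed the filter on low counts. The only further S100 genes that passed it, S100A1 and S100A3, were not called.

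**Figure D1:**
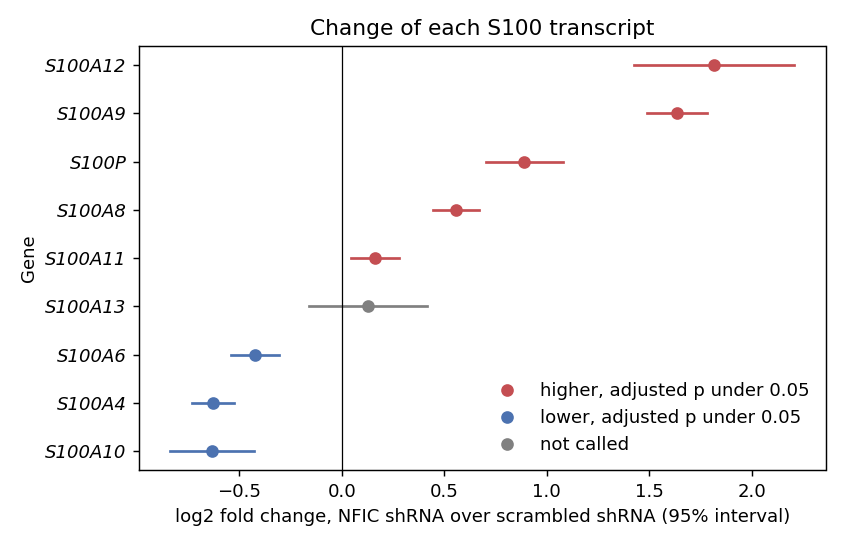
Each point is the log2 fold change of 1 gene, NFIC shRNA over scrambled shRNA, from edgeR with 3 samples in each group, and each line is its 95% interval. S100A12 and S100A9 lie at 1.82 and 1.63, S100A4 and S100A10 lie at -0.63, and the interval of S100A13 includes 0.

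S100A9 (ENSG00000163220), the larger subunit of calprotectin, was the most abundant member before and after KD. Its level in TPM, which divides counts by gene length and scales every sample to the same sum, was 2110.0, 2419 and 2343 TPM with scrambled shRNA and 6738, 7428 and 7882 TPM after KD. The lowest KD sample thus lay far above the highest scrambled sample. Scaled by library only, its mean went up from 531 ± 41.4 CPM to 1649 ± 148 CPM (SD over 3 samples each), 3.10-fold, at a log2 fold change of 1.63 (standard error 0.069, edgeR adjusted p = 3.10e-11). Ranked by TPM among all genes of the table, S100A9 moved from places 49 to 54 with scrambled shRNA to places 14 to 16 after KD. Its log2 fold change was larger in size than that of 96.8% of the genes tested.

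S100A8 (ENSG00000143546), the partner of S100A9 in calprotectin, rose less. It measured 680, 736 and 715 TPM with scrambled shRNA and 1043, 1089 and 1111 TPM after KD, with no overlap between the groups. The increase was 1.47-fold, a log2 fold change of 0.56 (standard error 0.053, edgeR adjusted p = 8.30e-08). The S100A9 to S100A8 ratio of TPM was therefore compared within each sample. It was 3.10, 3.29 and 3.28 with scrambled shRNA and 6.46, 6.82 and 7.10 after KD. The KD samples lay above every scrambled sample, and the log2 ratio differed by 1.08 (exact permutation test over samples, two-sided p = 0.1, the smallest that 3 against 3 samples allow). The gene lengths used, 573 bases for S100A9 and 891 bases for S100A8, set the height of the ratio but not the difference between groups.

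**Figure D2:**
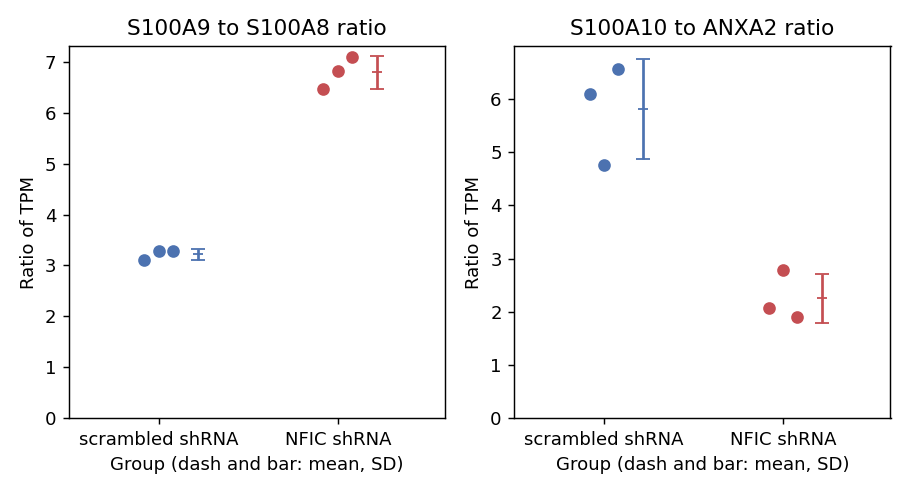
Points are the ratio of TPM of S100A9 to S100A8 (left) and of S100A10 to ANXA2 (right) in each sample of the scrambled and NFIC shRNA groups, with the mean and SD beside them. The S100A9 to S100A8 ratio is 3.10 to 3.29 in scrambled and 6.46 to 7.10 in KD samples, and the S100A10 to ANXA2 ratio is 4.75 to 6.57 and 1.91 to 2.78. The height of each ratio, but not the difference between groups, depends on the gene lengths used.

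S100A12 (ENSG00000163221), a calgranulin that signals through RAGE, also rose, from a low start. It had 46, 37 and 63 counts with scrambled shRNA and 169, 174 and 168 counts after KD, or 2.19 ± 0.722 and 7.66 ± 0.479 CPM (SD, n = 3 in each group). The 3 KD samples were close together, while the scrambled samples spread more widely. The log2 fold change was 1.82 (standard error 0.19, edgeR adjusted p = 2.37e-07), a 3.52-fold increase. Its 95% interval, 1.43 to 2.21, contained the log2 fold change of S100A9, and without scrambled replicate 2 its value (1.59) was below that of S100A9 (1.68). In TPM it remained a minor member, at 11.2 ± 3.71 in scrambled and 40.4 ± 3.02 in KD samples (SD, n = 3 in each group).

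S100P, which lies apart from the S100 cluster on chromosome 4 (ENSG00000163993, 6693878 to 6697170, GRCh38) and binds the membrane linker ezrin, had 319, 332 and 343 counts with scrambled shRNA and 545, 686 and 598 counts after KD. Every KD sample was above every scrambled sample. Its log2 fold change was 0.89 (standard error 0.088, edgeR adjusted p = 1.56e-07), a 1.85-fold increase. EZR, the gene of ezrin, fell slightly, with a log2 fold change of -0.19 (edgeR adjusted p = 0.00464).

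The 4 widely made members split. S100A4, which binds nonmuscle myosin and is known for its link to cell motility, measured 609, 632 and 634 TPM with scrambled shRNA and 423, 407 and 422 TPM after KD. The groups were tight and did not overlap, and S100A4 fell by 0.63 on the log2 scale (standard error 0.049, edgeR adjusted p = 7.34e-09). S100A6, or calcyclin, measured 387, 351 and 360 TPM with scrambled shRNA and 278, 299.6 and 268 TPM after KD. Again the groups did not overlap. It fell by 0.42 on the log2 scale (standard error 0.056, edgeR adjusted p = 4.62e-06). S100A10, a member that has lost calcium binding and forms a fixed complex with annexin A2, measured 83.1, 81.1 and 93.4 TPM with scrambled shRNA and 50.1, 66.4 and 54.6 TPM after KD. It fell by 0.63 on the log2 scale (standard error 0.096, edgeR adjusted p = 2.61e-05), with more spread among the KD samples than S100A4. S100A11, a partner of annexin A1, measured 1333, 1250.0 and 1369 TPM with scrambled shRNA and 1442, 1510.4 and 1614 TPM after KD. The lowest KD sample was just above the highest scrambled sample. It rose by 1.12-fold, a log2 fold change of 0.16 (standard error 0.056, edgeR adjusted p = 0.0186). This small rise lost its call with upper-quartile normalization (log2 fold change 0.10, edgeR adjusted p = 0.106). It also lost it without scrambled replicate 1, scrambled replicate 2 or NFIC shRNA replicate 3, with edgeR adjusted p of 0.0598, 0.0893 and 0.0541.

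S100A13, which takes part in the release of FGF1 and interleukin 1 alpha, was the member with no call. It had 137, 197 and 186 counts with scrambled shRNA and 200, 176 and 183 counts after KD, and the groups overlapped. The log2 fold change was 0.13, with a 95% interval from -0.16 to 0.42 (edgeR adjusted p = 0.441), so that changes of this size in either direction were not separated from no change. Its gene model shares 5029 bases with the noncoding RNA AL162258.1 on the same strand and 3435 bases with S100A1 on the opposite strand. AL162258.1 had 552 to 703 counts per sample, more than S100A13 itself, and rose with a log2 fold change of 0.21 (edgeR adjusted p = 0.0333). How reads in the shared bases were assigned is not given in the sources used here, so the level of S100A13 is uncertain. S100A4 in turn spans all 1930 bases of S100A3, which had only 7 to 23 counts per sample. An antisense noncoding RNA with 2 to 17 counts per sample overlaps S100A6 by 531 bases.

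**Figure D3:**
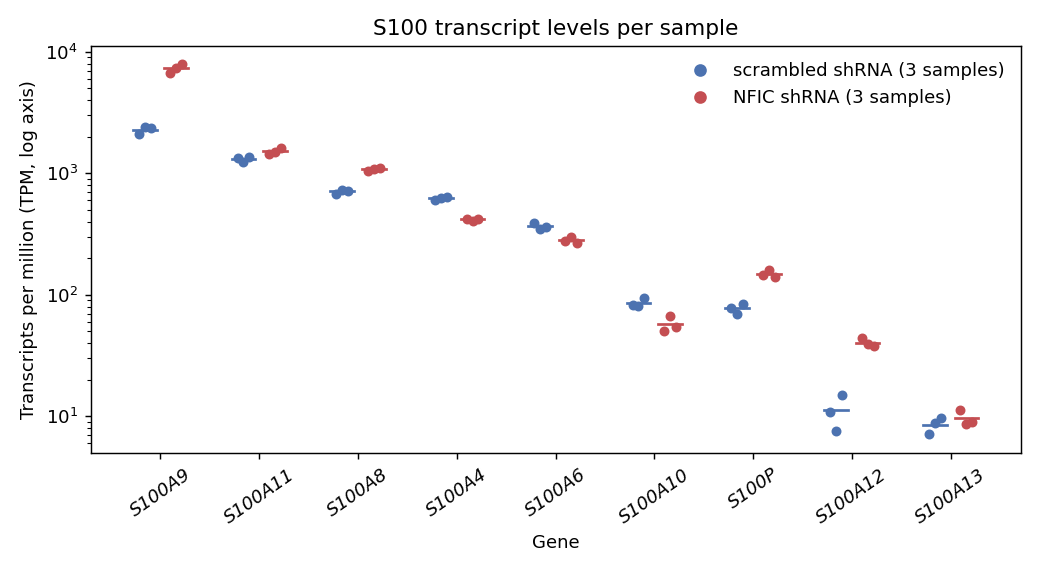
Each point is the level of 1 gene in 1 sample, in TPM on a log axis, for the 3 scrambled (blue) and 3 NFIC shRNA (red) samples, and short lines are group means. S100A9 stands highest in both groups, with means of 2291 and 7349 TPM, and S100A13 lowest, with means of 8.56 and 9.70 TPM. In mean CPM, which is not divided by gene length, S100A12 is the lowest in both groups.

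In scrambled samples the order of levels by mean TPM was S100A9, S100A11, S100A8, S100A4, S100A6, S100A10, S100P, S100A12 and S100A13. The ranges of S100A10 and S100P overlapped across samples. Within each scrambled sample S100A10 was the higher, at 83.1, 81.1 and 93.4 TPM against 78.0, 70.2 and 84.1 TPM. The ranges of S100A12 and S100A13 also overlapped, and the order of these genes differed between samples. In KD samples S100P stood above S100A10, with 148 ± 10.6 against 57.0 ± 8.37 TPM (SD, n = 3 for each), and no neighboring ranges overlapped. Order and shares in TPM depend on the gene lengths used, such as 485 bases for S100A12 and 2216 bases for S100A13. In mean CPM S100A12 was below S100A13, at 2.19 against 7.68 CPM in scrambled and 7.66 against 8.41 CPM in KD samples. The 9 genes summed to 5298, 5555 and 5623 TPM with scrambled shRNA and 10175, 11009 and 11537 TPM after KD, a 1.98-fold difference (exact permutation test, two-sided p = 0.1, the smallest possible). S100A9 supplied most of this difference. Its share of the summed TPM was 41.7 ± 1.86% in scrambled and 67.3 ± 1.05% in KD samples (SD, n = 3 in each group), and without it the sum went from 3202 ± 72.7 to 3558 ± 111 TPM (SD, n = 3 in each group). The share of S100A4 went from 11.4 ± 0.111% to 3.84 ± 0.277%, and that of S100A8 from 12.9 ± 0.273% to 9.93 ± 0.314% although its own transcript rose (SD, n = 3 in each group).

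**Figure D4:**
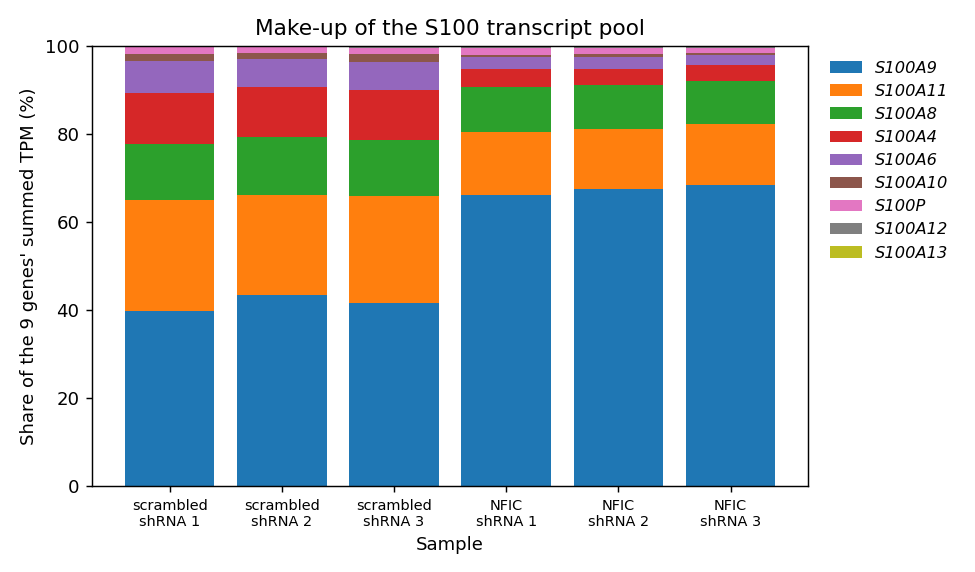
Each bar is 1 sample and shows the share of each gene in the summed TPM of the 9 genes, in percent. S100A9 takes 39.8% to 43.5% with scrambled shRNA and 66.2% to 68.3% in the NFIC shRNA samples.

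Of the 9 genes, 8 lie in the S100 cluster on chromosome 1 (GRCh38), which runs from S100A10 at 151982915 to S100A1 at 153632039, a span of 1649 kilobases. The annotation places 63 protein-coding genes there, 16 of them S100 genes, and most of the others belong to the skin barrier genes that the cluster also holds. Of the other 47 protein-coding genes only TCHH, which encodes trichohyalin, had enough counts to be tested, and it had a log2 fold change of 0.065 (edgeR adjusted p = 0.703). The 3 calgranulins are next to each other, S100A9 at 153357854 to 153361023, S100A12 at 153373711 to 153375621 and S100A8 at 153390032 to 153391073, and all 3 rose. S100A6 (153534599 to 153536244) and S100A4 (153543613 to 153550136) lie beyond them and both fell. S100A10 (151982915 to 151993859) and S100A11 (152032506 to 152047907) are neighbors at the other end and moved in opposite directions. S100A13 (153618787 to 153631360) overlaps S100A1 at the far end. Just outside the cluster, THEM4 fell by 0.75 on the log2 scale (edgeR adjusted p = 3.62e-07), while CHTOP had a log2 fold change of -0.047 (edgeR adjusted p = 0.502).

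**Figure D5:**
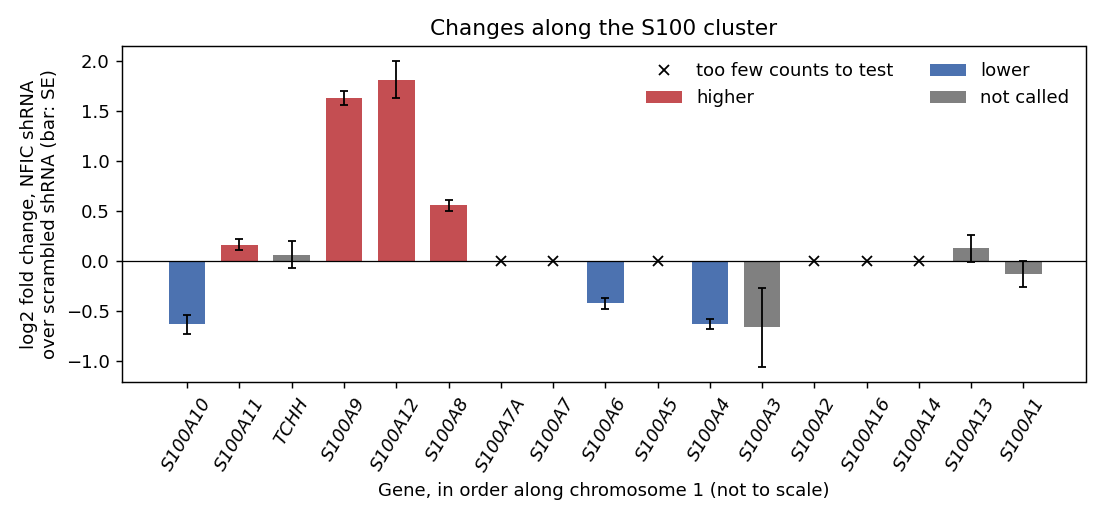
Bars are the log2 fold change of each tested gene, NFIC shRNA over scrambled shRNA, with its standard error, in the order of the genes along chromosome 1 and not to scale, and crosses mark S100 genes with too few counts to test. S100A9, S100A12 and S100A8 form a run of increases from 0.56 to 1.82, and S100A6 and S100A4 lie at -0.42 and -0.63.

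Of 10 further family members, only S100A1 and S100A3 passed the filter on low counts, and neither was called. S100A1 had 127, 167 and 146 counts with scrambled shRNA and 112, 139 and 148 counts after KD, near the level of S100A13 in CPM (6.49 ± 0.538 and 5.95 ± 0.492 CPM, SD over 3 samples each). It had a log2 fold change of -0.13 (edgeR adjusted p = 0.418) and S100A3 of -0.66 (standard error 0.39, edgeR adjusted p = 0.156). The other 8 (S100A2, S100A5, S100A7, S100A7A, S100A14, S100A16, S100B and S100G) had at most 15 counts in any sample, and for 5 of them no sample exceeded 3 counts.

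The promoter windows of the calgranulins and of S100A4 and S100A6 are shown because these genes lie in the same cluster and moved in opposite directions. Each window covers 250 bases before and 50 bases from the annotated start on, in RefSeq (GRCh38.p14), and all 9 analysed members had one. Capitals mark TTGGC or its reverse complement GCCAA, the core that nuclear factor I proteins recognize on either strand, and the TATA box letters TATAAA on either strand.
S100A9 (chr1:153357604-153357903, plus strand): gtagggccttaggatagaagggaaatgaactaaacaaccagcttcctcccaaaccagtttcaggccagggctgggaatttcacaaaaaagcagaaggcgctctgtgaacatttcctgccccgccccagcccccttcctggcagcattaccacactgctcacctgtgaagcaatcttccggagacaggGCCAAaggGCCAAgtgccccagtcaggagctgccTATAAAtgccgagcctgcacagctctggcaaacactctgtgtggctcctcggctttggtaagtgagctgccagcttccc
S100A12 (chr1:153375572-153375871, minus strand): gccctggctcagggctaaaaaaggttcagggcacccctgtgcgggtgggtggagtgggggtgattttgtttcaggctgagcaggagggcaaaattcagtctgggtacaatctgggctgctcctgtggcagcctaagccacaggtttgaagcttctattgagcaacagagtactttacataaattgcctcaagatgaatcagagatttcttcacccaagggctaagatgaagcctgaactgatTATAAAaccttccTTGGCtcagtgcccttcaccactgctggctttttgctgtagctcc
S100A8 (chr1:153391024-153391323, minus strand): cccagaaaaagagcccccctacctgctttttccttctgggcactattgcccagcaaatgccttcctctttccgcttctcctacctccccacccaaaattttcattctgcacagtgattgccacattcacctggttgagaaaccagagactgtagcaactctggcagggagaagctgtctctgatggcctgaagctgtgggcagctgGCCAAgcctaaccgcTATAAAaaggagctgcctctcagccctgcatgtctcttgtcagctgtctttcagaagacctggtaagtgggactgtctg
S100A4 (chr1:153545757-153546056, minus strand): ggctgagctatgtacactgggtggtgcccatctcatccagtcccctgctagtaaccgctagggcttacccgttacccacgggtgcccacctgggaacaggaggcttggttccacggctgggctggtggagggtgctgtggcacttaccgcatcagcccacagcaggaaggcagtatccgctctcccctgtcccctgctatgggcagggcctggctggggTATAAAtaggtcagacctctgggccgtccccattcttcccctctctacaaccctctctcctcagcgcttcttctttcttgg
S100A6 (chr1:153535942-153536241, minus strand): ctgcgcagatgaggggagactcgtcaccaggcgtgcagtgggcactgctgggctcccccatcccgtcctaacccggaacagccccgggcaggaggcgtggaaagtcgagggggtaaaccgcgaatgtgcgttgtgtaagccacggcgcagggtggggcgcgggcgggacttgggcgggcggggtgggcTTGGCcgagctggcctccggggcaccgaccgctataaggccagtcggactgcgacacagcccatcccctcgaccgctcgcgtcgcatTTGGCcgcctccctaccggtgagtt

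S100A9 held GCCAA at positions -63 and -55 from the start, S100A8 at -44 and S100A12 held TTGGC at 6. S100P also held TTGGC, at -166. Thus 4 of the 5 members that rose had a match, and S100A11 had none. Of the 3 members that fell, S100A6 had matches at -62 and 26, and S100A4 and S100A10 had none. S100A13, which was not called, had none either. The same letters occurred in 45.6% of all 35116 promoter windows of this length. The full nuclear factor I palindrome, both cores in inverted order with a spacer between them, occurred in none of the 9 members and in 0.0285% of all windows. TATAAA was present in 6 of the 9 (S100A9, S100A12, S100A8, S100P, S100A4 and S100A13) and in 11.5% of all windows. The C/EBP letters TTGCNNAA, searched on both strands, matched S100A12 and S100A11 (10.5% of all windows), and the PU.1 letters GAGGAAG matched S100A9, S100A8 and S100P (13.6% of all windows). A match of letters is a description of the window and not a binding site.

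Receptors of released S100 proteins moved in both directions. Of 9 listed receptors and co-receptors 8 were tested, 4 were higher and 3 lower, with a median log2 fold change of 0.18. Among all genes tested, 29.6% were higher and 30.3% lower. TLR4, a receptor of calprotectin, measured 65.9, 60.7 and 76.6 CPM with scrambled shRNA and 45.7, 39.7 and 44.7 CPM after KD. The groups did not overlap, and TLR4 fell by 0.64 on the log2 scale (standard error 0.081, edgeR adjusted p = 4.35e-06). Its co-receptor CD14 rose with a log2 fold change of 0.65 (edgeR adjusted p = 1.06e-04), and its partner LY96 had too few counts to test. AGER, which encodes RAGE, measured 22.7, 19.3 and 19.5 CPM with scrambled shRNA and 24.4, 26.5 and 21.6 CPM after KD. The groups overlapped, and the call (log2 fold change 0.24, edgeR adjusted p = 0.0330) was lost without scrambled replicate 2 or 3 or without NFIC shRNA replicate 1 or 2, with edgeR adjusted p from 0.0793 to 0.144, and with upper-quartile normalization (0.108). NPTN, the neuroplastin receptor of S100A8, and ALCAM rose with log2 fold changes of 0.54 and 0.44 (edgeR adjusted p = 1.99e-07 and 3.53e-06). The scavenger receptor CD36 and MCAM fell by 0.85 and 1.36 on the log2 scale (edgeR adjusted p = 1.06e-06 and 0.00451). MCAM had low counts, 24, 29 and 28 with scrambled shRNA and 4, 18 and 9 after KD. Its log2 fold change ran from -1.99 to -1.03 with 1 sample left out. BSG, or EMMPRIN, a receptor of S100A9, had a log2 fold change of 0.11 (edgeR adjusted p = 0.0899), and was called with total counts in place of TMM (edgeR adjusted p = 0.0443) and without scrambled replicate 2 or NFIC shRNA replicate 2 (0.0336 and 0.0354).

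Inside the cell, all 5 listed annexins rose, while AHNAK, MYH9, PPFIBP1 and EZR fell. Of 13 listed partners 7 were higher, 4 lower and 2 not called, with a median log2 fold change of 0.22. The shares over all genes tested were 29.6% higher and 30.3% lower. ANXA2, the partner of S100A10, measured 48.3, 61.4 and 50.8 CPM with scrambled shRNA and 82.7, 82.7 and 99.8 CPM after KD. It rose by a log2 fold change of 0.72 (standard error 0.094, edgeR adjusted p = 2.40e-05), opposite to S100A10. The S100A10 to ANXA2 ratio of TPM accordingly went from 6.09, 4.75 and 6.57 with scrambled shRNA to 2.07, 2.78 and 1.91 after KD (difference in log2 ratio -1.37, exact permutation test, two-sided p = 0.1, the smallest possible). The gene lengths used, 1012 bases for S100A10 and 8824 bases for ANXA2, set the height of this ratio but not the difference between groups. In mean CPM S100A10 was the lower gene, at 35.2 against 53.5 CPM in scrambled and 22.6 against 88.4 CPM in KD samples. AHNAK, a giant scaffold that the S100A10 complex binds, went down from 165 ± 15.7 CPM to 70.2 ± 3.05 CPM (SD over 3 samples each, log2 fold change -1.23, edgeR adjusted p = 1.16e-10).

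MYH9, the nonmuscle myosin heavy chain that S100A4 binds, measured 1014, 944 and 1046 CPM with scrambled shRNA and 646, 653 and 690.2 CPM after KD. It fell by 0.59 on the log2 scale (standard error 0.052, edgeR adjusted p = 3.50e-08), the direction of S100A4, and PPFIBP1, another S100A4 partner, fell by 0.53 (edgeR adjusted p = 1.45e-05). ANXA1, the partner of S100A11, rose slightly, with a log2 fold change of 0.22 (edgeR adjusted p = 0.0112, and 0.0516 without scrambled replicate 2). CACYBP, the calcyclin-binding protein that S100A6 is known for, had a log2 fold change of -0.012 (edgeR adjusted p = 0.857). ANXA5, ANXA6, ANXA11 and the scaffold IQGAP1 rose with log2 fold changes of 0.64, 0.52, 0.39 and 0.84.

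Transcription factors known to act on myeloid genes did not move as a group. Of 10 listed, 4 were higher, 2 lower and 4 not called, with a median log2 fold change of 0.11. This is near the share over all genes tested, of which 59.9% were called (29.6% higher and 30.3% lower). STAT3, GFI1 and CEBPE rose with log2 fold changes of 0.61, 0.44 and 0.72, while CEBPA and IRF8 fell by 0.51 and 0.18 on the log2 scale. CEBPB, which drives calgranulin genes in other settings, had a log2 fold change of 0.25 (edgeR adjusted p = 0.0454) with overlapping groups. Its call was lost without scrambled replicate 1 or 2 or without NFIC shRNA replicate 1 or 2 (edgeR adjusted p from 0.0699 to 0.167), with upper-quartile normalization (0.149) and with a minimum of 10 counts in every sample (0.0571).

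Genes whose pattern over the 6 samples was most like that of a member were found from log2 CPM centered on each gene's own mean, among 15242 genes with a mean log2 CPM of at least 1. The likeness is a root mean square difference on the log2 scale and a description only. HPS5, AC008537.1 and FAXDC2 were nearest to S100A8, with differences of 0.0173, 0.0182 and 0.0193. SGSH, SGMS2 and NCF1 were nearest to S100A9, with differences of 0.0547, 0.0885 and 0.0889. NCF1 encodes a cytosolic subunit of the phagocyte NADPH oxidase. SLC44A2, TESC and TMEM81 were nearest to S100P, with differences of 0.0250, 0.0442 and 0.0460. S100A8 itself stood at place 1586 in likeness to S100A9, with a difference of 0.54, and S100A12 at place 276. This measure largely restates how far the sizes of the group changes differ, and S100A8 and S100A9 both rose.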

How the data were processed

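Bulk mRNA of THP-1 cells was sequenced in 3 scrambled and 3 NFIC shRNA samples. Reads were trimmed with Trim Galore, aligned with STAR (GRCh38) and assigned to Ensembl genes with featureCounts, as the authors describe. The deposited counts are raw whole reads. The deposited normalized signal is those counts over size factors, and the deposited FPKM derive from it by gene length. The authors' own comparison, not used here, fills further deposited columns with a log2 fold change, a score (Wald) and a p-value. Strand settings are not given in the sources used here.

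Raw counts entered edgeR 4.0.16 under R 4.3.3 (TMM scaling, filterByExpr, robust quasi-likelihood test, no replicate block), which tested 19182 of 33981 genes. Adjustment was Benjamini-Hochberg with a threshold of 0.05. The standard error was the absolute log2 fold change divided by the square root of F, and 95% intervals used its t quantile. TPM came from counts and the deposited gene lengths. Sums and ratios were tested on the log2 scale with exact permutation tests over samples. Positions came from GENCODE release 44, on the same build, and promoters were the RefSeq windows at each gene's canonical start. Chi-square per degree of freedom between libraries of 1 group was 1.99 to 7.84, more than counting error alone would give. Each library was counted as its own sample, although this check cannot tell separate transductions from repeat libraries of 1 transduction. Tests were tried on simulated data.

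The members and lists were chosen with earlier results of these data known. Named were all members, NFIC, further S100 genes, up to 5 genes a direction of each list, direct partners and receptors, the 3 nearest genes by pattern of S100A8, S100A9 and S100P, and overlapping or neighboring genes. VCAN and CSTA fall outside this rule and were chosen after their values were seen. Some genes that the rule names are not reported here. Alternatives were other normalizations, DESeq2 1.42.0, other filters, each sample left out and a replicate block. Protein sequences were not used here.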

Additional observations from a re-analysis of the deposited data

How the results depend on the processing

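The directions of S100A4, S100A6, S100A8, S100A9, S100A10, S100A12 and S100P and their calls held in all 13 alternatives, which were 3 other normalizations, DESeq2, 2 other filters, the replicate block and each of the 6 samples left out. Leaving out 1 sample gave log2 fold changes from 1.57 to 1.71 for S100A9, 0.51 to 0.60 for S100A8, 1.59 to 2.08 for S100A12, 0.82 to 0.95 for S100P, -0.66 to -0.61 for S100A4, -0.47 to -0.39 for S100A6 and -0.76 to -0.54 for S100A10. S100A13 was called in none of the 13 and S100A11 in 9. The number of members called was between 7 and 8, and the number of all genes called between 10176 (DESeq2) and 11783 (no filter on low counts). DESeq2 called 46.0% of the genes to which it gave an adjusted p.

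The difference in log2 summed S100 level was 0.99 in TPM, 0.80 in TMM-scaled CPM, which gives longer transcripts more weight, and 0.15 when S100A9 was left out of the sum, a choice made after seeing the data. CACYBP changed sign with total counts (0.0062), DESeq2 (0.0039), without scrambled replicate 2 (0.016) and without NFIC shRNA replicate 1 (0.010), and was not called in any of these. Its values with 1 sample left out ran from -0.049 to 0.016. Adding the pseudogene copies of ANXA2 to ANXA2, also chosen after seeing the data, did not change the direction of its ratio with S100A10.

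Replicate numbers were given here in the order of the samples. The labels of the scrambled samples skip a number, so only the first pair shares its label number. Across genes, the deviations of scrambled and NFIC shRNA samples with the same replicate number correlated at 0.0563, -0.0863 and -0.0446. Because the numbers were assigned by order, this cannot decide whether the samples were paired in the experiment. With these assigned numbers as a block 10983 genes and 8 members were called, and S100A11 had an edgeR adjusted p of 0.0273. Depth limits statements on the 8 further S100 genes that were not tested, where a change was not detectable at this depth.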

Other observations

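Other EF-hand calcium sensors were also examined, from a list of 25 that share the calcium-binding motif with the S100 family. Of these, 12 were higher, 4 lower and 9 not called by edgeR, with a median log2 fold change of 0.10. Over all genes tested, 59.9% were called, 29.6% higher and 30.3% lower. LCP1, the actin-bundling protein plastin of blood cells, measured 1339, 1382 and 1388 CPM with scrambled shRNA and 2035, 1955 and 2099 CPM in the NFIC shRNA samples (log2 fold change 0.57, edgeR adjusted p = 2.57e-08). CALM3, which encodes calmodulin, rose with a log2 fold change of 0.65. PEF1, SRI and NUCB1 fell by 1.27, 0.79 and 0.76 on the log2 scale.

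Of 16 genes of classical monocytes, the blood cells in which S100A8, S100A9 and S100A12 are abundant, 14 were tested. By edgeR 6 were higher, 2 lower and 6 not called, with a median log2 fold change of 0.13. The share called over all genes tested was 59.9%, with 29.6% higher and 30.3% lower. LYZ, which encodes lysozyme, went up from 572 ± 69.0 CPM to 940.0 ± 104 CPM (SD over 3 samples each), with a log2 fold change of 0.72 (edgeR adjusted p = 5.63e-05). CTSS, MNDA, FCER1G and TYROBP rose with log2 fold changes of 0.67, 0.52, 0.44 and 0.40. CD36 and CSF3R fell by 0.85 and 0.50 on the log2 scale. VCAN and CSTA, which are found with the calgranulins in monocytes, had log2 fold changes of -0.020 and -0.072 (edgeR adjusted p = 0.884 and 0.313).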
